A study of Oryza sativa Indica Group with 8 samples.

Results

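The Argonaute family was examined in rice leaves that overexpress OsPRR37 and in leaves of the recipient variety. The 9 members, taken by their MSU locus identifiers, were AGO1a (LOC_Os02g45070), AGO1b (LOC_Os04g47870), AGO1c (LOC_Os02g58490), AGO1d (LOC_Os06g51310), AGO2 (LOC_Os04g52540), AGO4a (LOC_Os01g16870), AGO4b (LOC_Os04g06770), AGO16 (LOC_Os07g16224) and AGO18 (LOC_Os07g28850). Their names are those used in the study. All 9 were listed among the 35961 loci of the count table, and all 9 were among the 19280 genes that passed the filter on low values. By their identifiers, they lie on chromosomes 1 (AGO4a), 2 (AGO1a and AGO1c), 4 (AGO1b, AGO2 and AGO4b), 6 (AGO1d) and 7 (AGO16 and AGO18). Coordinates and exon structures were not used here, because no identifier in the table was found in the reference table of RefSeq genes (0 matched).

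Argonaute proteins bind small RNAs and use them as guides to find complementary RNA. In plants, proteins of the AGO1 clade mainly carry microRNAs, and they cut or repress the messenger RNAs that the microRNAs match. Proteins of the AGO4 clade, to which AGO4a, AGO4b and AGO16 belong, carry small interfering RNAs and guide RNA-directed DNA methylation of repeats and transposons. AGO2 is known for defence against viruses. AGO18 occurs in grasses, and it can take up miR168, the microRNA that targets AGO1 transcripts, and so relieve AGO1 from repression.

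The overexpression plants were OE5, a line of Guangluai 4 that carries an OsPRR37 transgene, and the plants they were set against were Guangluai 4 itself (GL), the wild type by the labels. OE5 is a single transgenic line, and the study describes the OsPRR37 allele of GL as a loss-of-function allele, so both genotypes carry that allele and OE5 has the transgene in addition. Leaves came from plants of both genotypes at an age of 15 days, raised in a chamber at 28°C whose day had 14 h light and 10 h dark, and the uppermost expanded ones were taken in the morning. Each genotype had 2 RNA-seq libraries, called OE5-1, OE5-2, GL-1 and GL-2. Bisulfite libraries of the same plants were not analysed here. The sources describe the libraries of a genotype as biological replicates without saying how many plants each held, so the p-values measure the spread between these libraries.

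The counts on genes summed to 47685773 and 48284992 in OE5 and to 43423801 and 45708220 in GL. The GL replicates differed from each other more than the OE5 replicates did, with chi-square statistics, divided by their degrees of freedom, of 64.9 in OE5 and 214 in GL. Both values are above that of sampling noise alone, so no libraries were merged. Leaf markers and the transgene were not checked, because the files do not pair identifiers with names. In a bulk leaf sample, fewer cells that express a gene and less RNA per cell cannot be told apart.

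To rank the family, levels were compared as TPM, an abundance unit that corrects for the length of a gene and the size of a library, so that genes can be set against each other. AGO4a and AGO1a were the most abundant members in both genotypes. AGO1b and AGO1c came next, AGO4b, AGO2 and AGO16 were at intermediate levels, and AGO1d and AGO18 were near 1 TPM. The mean of the 4 libraries was 14.6 TPM for AGO4a, above 63.6% of the tested genes, and 0.934 TPM for AGO18, above 1.49% of them. The filter had removed loci whose TPM summed to less than 2 in each genotype, so AGO18 lay near the floor of the tested genes.

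AGO1a, a main carrier of microRNAs, had 15.7 and 13.2 TPM in OE5-1 and OE5-2, against 13.4 and 15.1 TPM in the GL libraries of the same numbers. AGO1b had 12.7 and 10.5 TPM in OE5, against 9.85 and 11.2 TPM in GL. AGO1c had 10.8 and 10.1 TPM in OE5, against 9.60 and 10.1 TPM in GL. The values of AGO1a and AGO1b in the 2 genotypes overlapped, with OE5-1 the highest library and the other OE5 library the lowest or next to the lowest. Those of AGO1c did not overlap on this scale, although OE5-2 and GL-2 were very close. AGO1d had 1.01 and 1.18 TPM in OE5, against 0.848 and 0.969 TPM in GL. It was the weakest of the AGO1 genes by a wide margin, with 147 and 176 counts in OE5 and 116 and 136 counts in GL.

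AGO2 had 8.17 and 7.51 TPM in OE5, against 4.77 and 5.53 TPM in GL. Both OE5 libraries were above both GL libraries, and the gap between the genotypes was wider than the gap within either of them. In the AGO4 clade, AGO4a had 14.4 and 15.0 TPM in OE5, against 13.9 and 15.2 TPM in GL. AGO4b had 7.49 and 8.50 TPM in OE5, against 6.33 and 7.60 TPM in GL. AGO16 had 5.55 and 5.67 TPM in OE5, against 5.08 and 4.43 TPM in GL. The values of AGO4a and AGO4b overlapped between the genotypes, and those of AGO16 did not. AGO18 had 1.22 and 1.11 TPM in OE5, against 0.729 and 0.683 TPM in GL, again with both OE5 libraries above both GL libraries.

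**Figure D1:**
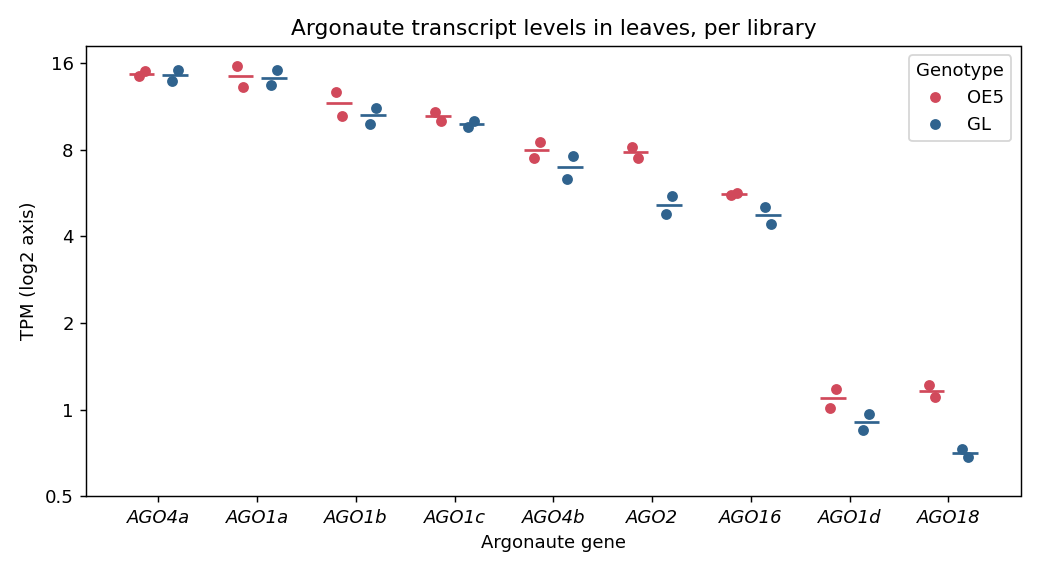
Transcript level of each Argonaute gene in TPM on a log2 axis, with 1 point per library, OE5 at the left and GL at the right of each gene, and a line at the mean of each genotype. AGO4a and AGO1a lie between 13.2 and 15.7 TPM in every library, AGO1d and AGO18 near 1 TPM, and the genotypes are furthest apart in AGO2 and AGO18.

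The order of the members was much the same in OE5 and GL, with 1 change at the bottom. Neighbours in the order were called apart when both libraries of the higher gene were above both libraries of the next. In OE5, this held for AGO1a over AGO1b (ratio of the mean TPM 1.25), AGO1c over AGO4b (1.31), AGO2 over AGO16 (1.40) and AGO16 over AGO18 (4.83). It did not hold for AGO4a and AGO1a, AGO1b and AGO1c, AGO4b and AGO2, or AGO18 and AGO1d. In GL, it held for AGO1a over AGO1b (1.35), AGO1c over AGO4b (1.41), AGO4b over AGO2 (1.35), AGO16 over AGO1d (5.24) and AGO1d over AGO18 (1.29). It did not hold in GL for AGO4a and AGO1a, AGO1b and AGO1c, or AGO2 and AGO16. AGO2 was therefore not separated from AGO4b in OE5 and not from AGO16 in GL, and AGO18 was not separated from AGO1d in OE5 but was below it in GL. Raw counts would give another order, since the genes differ in length. The length behind the TPM of AGO1b was 1.29 times that of AGO1a, and that of AGO2 was 0.363 times that of AGO1a. The paralogues of a clade also share sequence, and how reads that fit several places were counted is not named, so their separate levels carry that uncertainty.

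To ask whether Argonaute transcripts differed between the genotypes, the counts of all 19280 genes were fitted with edgeR's quasi-likelihood test after TMM normalization, which sets libraries on a common scale by the bulk of their genes. A gene was called when its fold change exceeded 1.5 and its p, adjusted by Benjamini-Hochberg, was below 0.05. None of the 9 members was called (0 of 9), where 3.39% of all tested genes were (653 genes, with 2.11% higher and 1.28% lower in OE5). DESeq2 also called 0 of 9, where it called 4% of all tested genes. At an unadjusted p under 0.05, edgeR had 2 of the 9 members, AGO2 and AGO18, where 15.2% of all genes were under that limit. The median log2 fold change of the members was 0.033, and that of all tested genes was -0.0059. AGO1d and AGO18 passed the filter through OE5 alone, where the sum of their TPM values reached 2 (2.19 and 2.32, against 1.82 and 1.41 in GL), so the members do not enter this median on equal terms.

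AGO2 had 564 and 513 normalized counts in OE5, against 356 and 436 in GL. Its mean was 538 ± 35.9 (SD, n = 2) in OE5 and 396 ± 56.0 (SD, n = 2) in GL, and the libraries did not overlap. The log2 fold change was 0.44 (standard error 0.16), a fold change of 1.36 with a 95% interval from 1.06 to 1.73. It missed both limits, with a fold change under 1.5 and an adjusted p of 0.201 from edgeR's quasi-likelihood test and of 0.275 from DESeq2. The size of the difference depended on which GL library was kept. Without GL-2, the log2 fold change was 0.60, and without GL-1 it was 0.31. A fit with 1 GL library takes its spread from OE5, so calls from such fits are not read as results for AGO2. Over the alternatives with all libraries, the adjusted p from edgeR, DESeq2 or limma ran from 0.0694 to 0.275.

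AGO18 had 130 and 117 normalized counts in OE5, against 84.2 and 83.4 in GL. Its mean was 123 ± 9.23 (SD, n = 2) in OE5 and 83.8 ± 0.63 (SD, n = 2) in GL, again without overlap. AGO18 entered the fit only through its level in OE5, so its separation and fold change are not free of the filter. The log2 fold change was 0.55 (standard error 0.23), a fold change of 1.46 with a 95% interval from 1.02 to 2.1. AGO18 also missed both limits, with a fold change under 1.5 and an adjusted p of 0.299 from edgeR and of 0.580 from DESeq2. Its log2 fold change was 0.34 with limma on log2(TPM + 1), and with the filter applied to both genotypes AGO18 was not tested. AGO18 was counted with 75 to 139 reads per library, and counting alone gives an error of 11.5% of the value at the lowest count.

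The AGO1 genes were closer to 0. AGO1a had a mean of 2728 ± 355 normalized counts in OE5 and 3007 ± 366 in GL (SD, n = 2 each), with -0.14 as log2 fold change (standard error 0.13) and an adjusted p of 0.733 from edgeR. AGO1b had 2830 ± 404 in OE5 and 2881 ± 372 in GL (SD, n = 2 each), with a fold change of 0.982 and a 95% interval from 0.791 to 1.22. AGO1c had 1230 ± 66.8 in OE5 and 1292 ± 92.0 in GL (SD, n = 2 each), and the interval of its fold change ran from 0.799 to 1.13. For these 3 abundant genes, and for AGO4a, AGO4b and AGO16, the whole interval lay within a fold change of 1.5 in either direction. For AGO1d, it ran from 0.766 to 1.502 and just passed that limit, with 148 ± 15.6 normalized counts in OE5 and 138 ± 18.3 in GL (SD, n = 2 each). In AGO1a, AGO1b, AGO1c and AGO1d alike, the normalized counts of the replicates of a genotype were further apart than the genotype means.

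In the AGO4 clade, AGO4a had 1805 ± 38.2 normalized counts in OE5 and 2002 ± 203 in GL (SD, n = 2 each). Its log2 fold change was -0.15, with a standard error of 0.11 and an adjusted p of 0.635 from edgeR. It was -0.24 without GL-1 and -0.04 without GL-2. AGO4b had 994 ± 80.9 in OE5 and 971 ± 162 in GL (SD, n = 2 each), and its log2 fold change was 0.03 (standard error 0.14). AGO16 had 691 ± 4.91 in OE5 and 655 ± 37.9 in GL (SD, n = 2 each), and its log2 fold change was 0.08 (standard error 0.12). None of the 3 was distinguishable from the spread of the replicates by the test (adjusted p of 0.949 for AGO4b and 0.857 for AGO16 from edgeR).

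**Figure D2:**
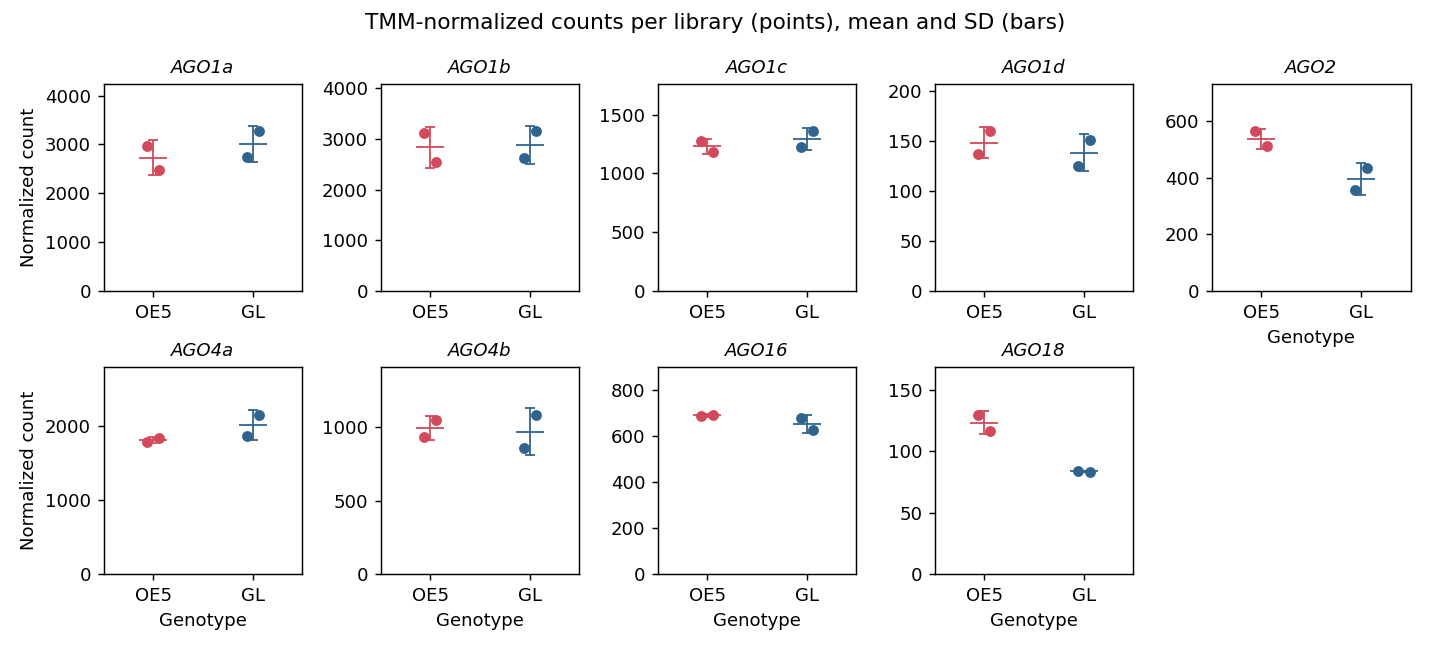
TMM-normalized counts of each member, with 1 panel per gene, points for the 2 libraries of OE5 (left) and GL (right), and a bar for the mean ± SD. Each axis starts at 0. AGO1d and AGO18 passed the filter through OE5 alone. AGO2 and AGO18 stand clear of GL in both OE5 libraries, with means of 538 and 396 for AGO2 and of 123 and 83.8 for AGO18 in OE5 and GL, while the points of AGO1a, AGO1b, AGO1c, AGO1d and AGO4b overlap.

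Normalized counts did not overlap between the genotypes for 4 of the 9 members, where the background over all tested genes was 44.6%. AGO2, AGO16 and AGO18 were higher in both OE5 libraries, as 22.2% of all genes were, and AGO4a was lower in both. On the TPM scale, 5 members were separated, all with OE5 higher, where 53.7% of all genes were separated and 45% had both OE5 libraries above GL. The members' shares are thus near those of the background. AGO1d and AGO18 passed the filter through OE5 alone, so their part in these counts is not free of the filter. The scale itself moved with the genotype. With library totals in place of TMM, the median log2 fold change of all genes was 0.14, and as log2(TPM + 1) it was also 0.14. By TMM, 5 of the 9 members had a positive log2 fold change and by log2(TPM + 1) all 9 did, but only 4 of the 9 were above the median of all genes on that scale. The slightly higher TPM of most members in OE5 was of the size of the shift shared by all genes, and AGO1a, AGO1b, AGO1c and AGO4a change sign between the scales.

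Ratios between members within a library are free of that shift. The share of AGO1a in the summed TPM of the 4 AGO1 genes was 39.0% and 37.7% in OE5, against 39.7% and 40.4% in GL. The difference was -1.68 percentage points with a pooled SD of 0.734, and it was -1.02 without OE5-2. AGO1b made up 31.6% and 30.0% of the AGO1 sum in OE5, against 29.3% and 30.1% in GL, and AGO1d made up 2.50% and 3.38% in OE5, against 2.52% and 2.60% in GL. The make-up of the AGO1 group was therefore within a few percentage points in all 4 libraries.

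AGO18 was set against the AGO1 group, since both take part in the miR168 module that the study discusses. From a time course of older plants under natural long days, the study described AGO1a and AGO1d as lowered in OE5. It described AGO1b and AGO18 as raised. The leaves used here were taken in the morning at 15 days, so those directions are not directly comparable. The log2 ratio of AGO18 to the summed TPM of the AGO1 genes was -5.05 and -4.98 in OE5, against -5.53 and -5.77 in GL. AGO18 was thus far below AGO1 in every library, and the ratio was higher in OE5 by 0.64 on the log2 scale, with a pooled SD of 0.12. AGO18 had only 75 to 139 counts per library and passed the filter through OE5 alone, so this difference is not free of the filter. The log2 ratio of AGO4a to AGO4b was 0.94 and 0.82 in OE5, against 1.14 and 1.0 in GL, a difference of -0.19 with a pooled SD of 0.0913. It was -0.12 without GL-1 and -0.13 without OE5-2. For the AGO1a share and for both ratios, the OE5 and GL values did not overlap. A two-sided exact permutation test gave p = 0.333 for each of the 3, the smallest p that 2 libraries against 2 allow, and Benjamini-Hochberg adjustment cannot lower it.

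The 9 members summed to 77.0 and 72.8 TPM in OE5, against 64.5 and 70.7 TPM in GL. The AGO1 genes summed to 40.2 and 35.0 TPM in OE5, against 33.7 and 37.3 TPM in GL, and those values overlapped. The differences of 7.29 TPM (exact permutation p = 0.333) and 2.11 TPM (exact permutation p = 0.667) were not stable to the scale. With TMM-normalized counts per gene length, they were -0.78 and -2.03. On the TPM scale, the difference of the 9-member sum was 4.17 TPM without GL-1. As a share of the 9 members, AGO2 took 10.6% and 10.3% in OE5, against 7.40% and 7.81% in GL, and AGO18 took 1.58% and 1.52% in OE5, against 1.13% and 0.966% in GL. AGO4a took 18.7% and 20.6% in OE5, against 21.6% and 21.5% in GL, and AGO1a took 20.4% and 18.1% in OE5, against 20.7% and 21.3% in GL. A share of a sum must fall for some genes when it is higher for others, so these shares are not independent of each other. The share of AGO18 is also not free of the filter, which AGO18 passed through OE5 alone.

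**Figure D3:**
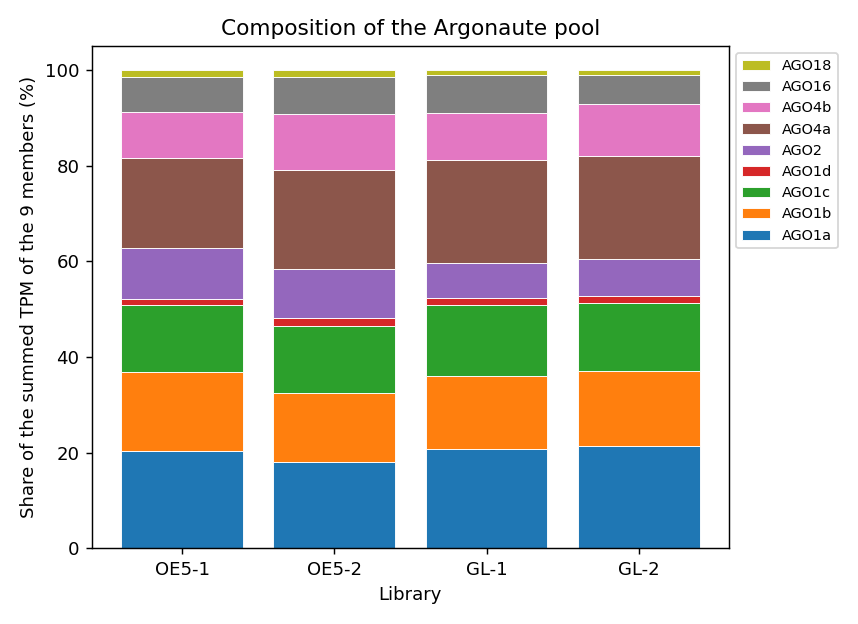
Share of each member in the summed TPM of the 9 Argonaute genes, as stacked bars in percent for OE5-1, OE5-2, GL-1 and GL-2. The AGO1 genes and AGO4a fill most of each bar, and the AGO2 segment takes 10.6% and 10.3% in OE5, against 7.40% and 7.81% in GL.

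The replicates of a genotype also differed from each other. In GL, 7 of the 9 members had a higher TPM in GL-2 than in GL-1, with AGO16 and AGO18 the exceptions. The log2 difference of GL-1 over GL-2 ran from -0.26 (AGO4b) to 0.20 (AGO16). In OE5, AGO1a, AGO1b, AGO1c, AGO2 and AGO18 were higher in OE5-1, and AGO1d, AGO4a, AGO4b and AGO16 were higher in OE5-2. The log2 difference of OE5-1 over OE5-2 was 0.25 for AGO1a and 0.28 for AGO1b, both larger in size than the log2 fold change between the genotypes for these genes.

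The other genes of small RNA production were read from the same fit. The list held 13 genes, namely AGO7 and AGO15, the Dicer-like genes DCL2a, DCL2b, DCL3a, DCL3b and DCL4, whose enzymes cut double-stranded RNA into small RNAs, the RNA-dependent RNA polymerase genes RDR1, RDR2, RDR3, RDR4 and RDR6, whose enzymes make that double-stranded RNA, and WAF1, the rice counterpart of the small RNA methyltransferase HEN1. Of these, 8 passed the filter and 0 were called by edgeR or by DESeq2, where edgeR called 3.39% and DESeq2 4% of all tested genes. In edgeR, 2 of the 8 were at an unadjusted p under 0.05, where 15.2% of all genes were. The median log2 fold change of the 8 was -0.07.

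RDR1 (LOC_Os02g50330), which is known for antiviral silencing, was the furthest from 0 among the tested genes of the list. It had 5.15 and 4.50 TPM in OE5, against 3.22 and 2.75 TPM in GL, and 662 and 590 counts in OE5, against 388 and 339 counts in GL. Its log2 fold change reached 0.53 with a standard error of 0.15, which is a fold change under 1.5. The adjusted p was 0.0984 from edgeR and 0.0946 from DESeq2, and the libraries of the genotypes did not overlap. RDR1 was called with libraries scaled to their totals (log2 fold change 0.67, adjusted p = 0.0484 from edgeR). Its log2 fold change was 0.62 without GL-1 and 0.46 without GL-2. Without the filter on low values, its adjusted p was 0.0227 from edgeR, but its fold change stayed under 1.5. Over the other fits with all libraries, its adjusted p ran up to 0.127. RDR2 (LOC_Os04g39160), which supplies double-stranded RNA for DNA methylation, had 473 and 507 counts in OE5, against 303 and 404 in GL, and a log2 fold change of 0.21 (standard error 0.18). It was 0.02 without GL-1 and 0.47 without GL-2.

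The DCL2 genes, whose enzymes act in silencing of viruses, lay on the other side. DCL2a (LOC_Os03g38740) had 1989 ± 218 normalized counts in OE5 and 2410 ± 29.5 in GL (SD, n = 2 each), which is -0.28 on the log2 scale with a standard error of 0.12 and an adjusted p of 0.291 from edgeR. DCL2b (LOC_Os09g14610) had 766 ± 102 in OE5 and 931 ± 49.8 in GL (SD, n = 2 each), also -0.28 on the log2 scale, with a standard error of 0.13 and an adjusted p of 0.365 from edgeR. Without OE5-1, the log2 fold change was -0.39 for DCL2a and -0.42 for DCL2b, and without OE5-2 it was -0.17 for DCL2a and -0.15 for DCL2b. With limma on log2(TPM + 1), both were -0.11. The DCL2 genes are close paralogues, so their counts may not be independent.

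**Figure D4:**
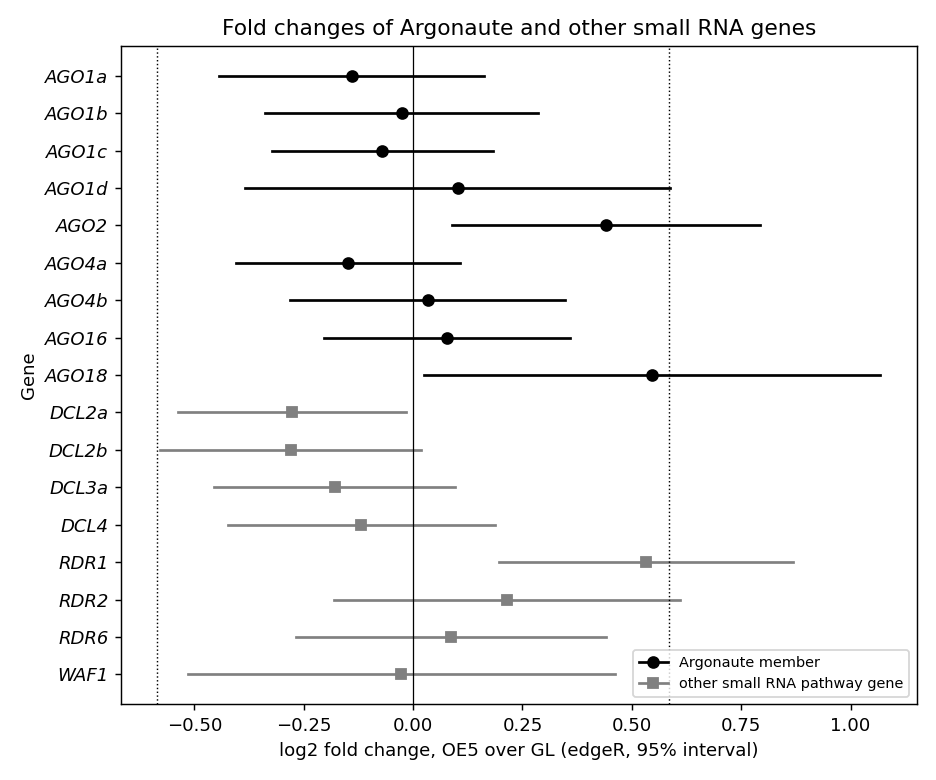
Log2 fold change of OE5 over GL from edgeR with its 95% interval, for the 9 Argonaute members (circles) and the 8 tested genes of the small RNA pathway (squares). Dotted lines mark a fold change of 1.5 in either direction. AGO2, AGO18 and RDR1 lie above 0 with their whole interval, and DCL2a lies below it, but no gene passed the adjusted threshold. An interval clear of 0 corresponds to an unadjusted edgeR p under 0.05, which 15.2% of all tested genes had. AGO1d and AGO18 passed the filter through OE5 alone.

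The 5 genes of the list that did not pass the filter are named here after their values were seen. They were AGO7, AGO15, DCL3b, RDR3 and RDR4. RDR3 (LOC_Os01g10130) had 25.2 and 22.6 normalized counts in OE5, against 34.6 and 53.3 in GL. Its libraries did not overlap, where 44.6% of all tested genes did not, and the main fit did not test it. The normalized counts of RDR4 and DCL3b overlapped between the genotypes. AGO7 (LOC_Os03g33650), whose protein works in the trans-acting small RNA pathway, had 0 and 2 counts in OE5, against 0 and 0 counts in GL. A count of 0 allows up to 3 counts, or 0.0372 TPM in OE5-1 and in the GL libraries 0.0409 and 0.0388 TPM, for counting error only. AGO15 (LOC_Os01g16850) had 24 and 23 counts in OE5, against 26 and 19 in GL, or 0.119 and 0.112 TPM in OE5, against 0.138 and 0.0981 TPM in GL. These Argonautes were thus far below the 9 members in leaves of both genotypes.

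AGO2 had the smallest p of the members, and genes with a like pattern were sought by the Euclidean distance of log2(TPM + 1), centred per gene, over the 4 libraries. The nearest were LOC_Os09g29940 and LOC_Os02g32590, at distances of 0.0255 and 0.0277, where the median over all tested genes was 0.499. LOC_Os02g32590 had 6.43 and 5.98 TPM in OE5, against 3.80 and 4.31 TPM in GL. The files do not pair these loci with names. AGO18 was the nearest other member, at a distance of 0.24 and rank 969 of all tested genes. AGO18 passed the filter through OE5 alone, so its distance and rank are not free of the filter. Adding 1 also damps genes near 1 TPM. With limma on log2(TPM + 1) and log2(TPM + 0.1), the log2 fold change was 0.34 and 0.65 for AGO18, and 0.53 and 0.60 for AGO2. With only 4 libraries from 2 genotypes, such likeness only describes these libraries.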

How the data were processed

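RNA-seq was analysed for OE5 and GL, with 2 libraries each. The deposited counts are raw reads per MSU locus that the authors obtained with fastp 0.20.1, HISAT2 2.1.0 on the Nipponbare genome (MSU v7.0) and TPMCalculator. The deposited TPM values are the authors' counts scaled to gene length and library total. The handling of strand, multi-mapped reads and overlapping genes is not given in the sources used here. Mates of a pair appear to be counted singly, so counting errors are lower limits, and halved counts were tried.

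Genes were kept where the TPM of the replicates summed to 2 or more in OE5 or GL. All kept genes entered 1 quasi-likelihood fit to the counts in edgeR 4.0.16 under R 4.3.3 (TMM, robust, prior count 2). Dividing the size of a log2 fold change by the root of its F statistic gave the standard error, and intervals are at 95%. These errors and the edgeR p-values draw on the spread of all kept genes, not only on the libraries of 1 gene. Normalized counts are counts over the relative effective library size. Between-gene ratios used TPM and a two-sided exact permutation test. Alternatives were DESeq2 1.42.0, limma 3.58.1 on log2(TPM + 1) and log2(TPM + 0.1), other scalings, filters and fold limits, a replicate block, halved counts and each library left out. The edgeR, DESeq2 and limma fits, but not the permutation test, were also run on simulated counts with known fold changes.

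All 9 members are named. Of the other small RNA genes, called genes were to be named, or else the 4 with the largest absolute log2 fold change. The 2 genes most like the member with the smallest p are given. Gene names come from the study. The members and lists were chosen with earlier results of these data known. Only the crossed pairing was chosen after these fits. Sequences are not used here.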

Additional observations from a re-analysis of the deposited data

How the results depend on the processing

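The count of 0 called members held under DESeq2, RLE, upper-quartile and total scaling, both filters, no filter, both limma fits, halved counts, no fold limit and a fold limit of 2, but with the filter applied to both genotypes only 7 members were tested, without AGO1d and AGO18. Over the fits without 1 library it was 0 to 1 (AGO2 without GL-2). In these fits, a genotype with a single library is assumed to vary like the other. Fits without a GL library called more genes in all than the main fit, and fits without an OE5 library called fewer. The pathway list had 0 calls, 1 (RDR1) with library totals, and 0 to 1 without 1 library. The count of all called genes, 653, became 344 with a fold limit of 2, 1207 without a filter, 429 with limma on log2(TPM + 1) and 370 on log2(TPM + 0.1), and 194 to 1270 without 1 library. The share of calls that were higher in OE5 was 62.3%, 79.8% with library totals and 83.7% with limma on log2(TPM + 1).

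Signs near 0 turned with the scale. With library totals, log2(TPM + 1) and log2(TPM + 0.1), the log2 fold change was 0.0074, 0.0189 and 0.0199 for AGO1a, 0.12, 0.12 and 0.13 for AGO1b and 0.0759, 0.0833 and 0.0906 for AGO1c, and with the limma fits it was 0.0144 and 0.0154 for AGO4a. With TMM-normalized counts per length, the AGO1 sum differed by -2.03 and the sum of the 9 members by -0.78. Without 1 library, the log2 fold change ran from -0.28 to -0.0048 for AGO1a, -0.18 to 0.12 for AGO1b, -0.13 to 0.0102 for AGO1c, -0.0157 to 0.25 for AGO1d, -0.24 to -0.04 for AGO4a and -0.12 to 0.22 for AGO4b, and the difference of the AGO1 sum from -0.50 to 4.73 TPM. AGO2 ranged from 0.31 to 0.60 and AGO18 from 0.47 to 0.62.

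With the replicate number as a block, 708 genes and 0 members were called, and with the pairing crossed, 751 genes and 0 members. Across genes, libraries that share a number deviated from their genotype means with Pearson's r = 0.135 and Spearman's rho = -0.139, so the numbers are not shown to pair the samples. Depth was lowest for AGO18 (75 to 139 counts) and AGO1d (116 to 176 counts).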
